A study of Mus musculus with 9 samples.

Results

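The data compared here were the positions of the histone deacetylases Hdac1 and Hdac2 in cells of the mouse line Bry, mapped by chromatin immunoprecipitation and sequencing (ChIP-seq). All peaks of the Bry Hdac1 list and of the Bry Hdac2 list were taken, 7671 and 9279 intervals on the mm10 build, which made 16950 of the 46202 peaks in the 6 deposited lists of the series. A peak was called shared when it overlapped a peak of the other list by 1 bp or more, and Hdac1-only or Hdac2-only otherwise. The Bry cells were untreated haemogenic endothelium of the C57BL/6 strain, grown out of embryonic stem (ES) cells at passage 16 to 19 by differentiation in culture, and the Hdac1 antibody was from Diagenode and the Hdac2 antibody from abcam. The series holds 9 libraries, with 1 Hdac1, 1 Hdac2 and 1 input library from each of the lines Bry, Hd1_loxlox and Hd2lox. Cells of the other lines were prepared in the same way from the same strain at passage 25 to 30, also without treatment. The labels do not say which alleles these lines carry. There was 1 library a side and no replicate, so no value below has a replicate error or a test, and intervals cover counting error only. The lists hold no counts, so read depth is unknown and sites read too thinly cannot be told from sites without the protein.

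Hdac1 and Hdac2 are closely related enzymes that remove acetyl groups from lysines of histones and other proteins. Neither binds DNA on its own, and both are brought to chromatin inside large complexes, of which Sin3, NuRD, CoREST and MiDAC are the best known, in which they can occupy the same scaffold together or in place of each other. Haemogenic endothelium is the vessel-lining cell that turns into the first blood cells under the control of factors such as Etv2, Tal1, Runx1 and Gfi1, with TGF-beta, BMP, Notch and Wnt signals acting on the change. A peak shows where the protein was recovered with DNA and not whether the gene nearby was active, so peaks cannot check the cell type.

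The sequences below show what lay under the widest peaks of each class. Each is the 250 bases before an annotated start, 5′ to 3′ on the strand of the gene, from RefSeq (GRCm38.p6, the assembly of mm10), with CG dinucleotides in capitals. The first pair had a peak of both proteins over the start, at Gadd45g (chr13:51846425-51846674, plus strand), a stress response gene, and Spry2 (chr14:105896820-105897069, minus strand), an inhibitor of receptor tyrosine kinase signalling.
Gadd45g: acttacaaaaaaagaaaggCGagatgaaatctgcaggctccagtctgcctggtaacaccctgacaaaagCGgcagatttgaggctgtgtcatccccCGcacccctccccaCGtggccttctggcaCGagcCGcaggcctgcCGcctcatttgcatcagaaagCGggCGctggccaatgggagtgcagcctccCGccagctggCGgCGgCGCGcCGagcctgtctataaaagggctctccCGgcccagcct
Spry2: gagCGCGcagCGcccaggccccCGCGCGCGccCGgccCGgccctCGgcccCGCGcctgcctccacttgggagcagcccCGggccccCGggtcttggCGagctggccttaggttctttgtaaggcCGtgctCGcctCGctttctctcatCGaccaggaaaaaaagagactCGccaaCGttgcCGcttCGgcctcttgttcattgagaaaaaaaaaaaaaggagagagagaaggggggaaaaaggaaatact

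Hdac1 alone was present over the start of Klf6 (chr13:5861239-5861488, plus strand), which encodes a Krüppel-like transcription factor induced by growth signals, and of Thap2 (chr10:115384436-115384685, minus strand), which encodes a THAP zinc finger protein.
Klf6: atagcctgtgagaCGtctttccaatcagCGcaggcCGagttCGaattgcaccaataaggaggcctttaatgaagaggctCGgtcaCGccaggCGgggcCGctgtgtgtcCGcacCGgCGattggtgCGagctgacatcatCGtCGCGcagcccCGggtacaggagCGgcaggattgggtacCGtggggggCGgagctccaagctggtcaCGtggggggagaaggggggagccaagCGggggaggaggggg
Thap2: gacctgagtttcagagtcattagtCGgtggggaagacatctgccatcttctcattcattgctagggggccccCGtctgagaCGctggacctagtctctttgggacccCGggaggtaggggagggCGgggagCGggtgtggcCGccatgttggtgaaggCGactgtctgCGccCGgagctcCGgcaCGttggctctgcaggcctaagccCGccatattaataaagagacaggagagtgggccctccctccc

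Hdac2 alone covered the start of Tspyl1 (chr10:34281940-34282189, plus strand), of the nucleosome assembly protein family, and of Fgfr3 (chr5:33721474-33721723, plus strand), a fibroblast growth factor receptor.
Tspyl1: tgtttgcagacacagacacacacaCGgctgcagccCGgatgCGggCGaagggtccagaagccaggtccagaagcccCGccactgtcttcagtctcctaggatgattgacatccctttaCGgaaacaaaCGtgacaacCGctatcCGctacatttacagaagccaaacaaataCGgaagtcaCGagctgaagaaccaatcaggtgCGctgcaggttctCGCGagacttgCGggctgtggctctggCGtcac
Fgfr3: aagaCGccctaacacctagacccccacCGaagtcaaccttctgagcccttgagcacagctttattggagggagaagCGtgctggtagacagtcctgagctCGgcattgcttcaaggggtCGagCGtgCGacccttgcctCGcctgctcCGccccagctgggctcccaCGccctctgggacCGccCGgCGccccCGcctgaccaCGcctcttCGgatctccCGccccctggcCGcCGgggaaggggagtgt

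Neither protein had a peak at Tie1 (chr4:118489850-118490099, minus strand), an endothelial receptor gene, shown as a marker whose printed bases lie outside annotated coding genes.
Tie1: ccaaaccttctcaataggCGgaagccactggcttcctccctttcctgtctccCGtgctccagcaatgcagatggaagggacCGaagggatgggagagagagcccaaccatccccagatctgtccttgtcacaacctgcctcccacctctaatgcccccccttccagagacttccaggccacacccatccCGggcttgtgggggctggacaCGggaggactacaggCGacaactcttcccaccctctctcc
The stretches under peaks held 13 to 23 CG dinucleotides, with 16 at Gadd45g, 23 at Spry2, 21 at Klf6, 13 at Thap2, 16 at Tspyl1 and 19 at Fgfr3. The stretch before Tie1 held 6, although its GC content of 60.4% lay between the 55.6% of Tspyl1 and the 66.8% of Fgfr3.

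Most sites of each protein in Bry were also sites of the other. Of the Hdac1 peaks 6113 (79.7%, Wilson 95% interval 78.8 to 80.6%) were shared and 1558 were Hdac1-only. Of the longer Hdac2 list 6131 peaks (66.1%, 65.1 to 67.0%) were shared and 3148 were Hdac2-only. The Hdac1 list covered 11.61 Mb and the Hdac2 list 13.34 Mb, and shared peaks held 82.8% and 71.4% of these bases. Among the 5000 widest peaks of each list 63.8% of Hdac1 and 63.9% of Hdac2 peaks were shared, with 1810 Hdac1-only and 1803 Hdac2-only peaks. Shared peaks matched almost 1 to 1, so lists of equal length must give nearly equal shares, which says nothing about the gap. With the 5000 widest peaks of 1 list against all of the other, 85.2% of Hdac1 and 79.0% of Hdac2 peaks were shared.

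Where the proteins met, their peaks nearly coincided. The shared peaks formed 6181 overlapping pairs, 5958 of them matched 1 to 1, and in these the shorter peak was covered to a median of 99.6%. The centres lay a median of 130 bp apart, with 255 bp at the upper quartile and 554 bp at the 95th percentile. The Hdac1 peak was 1.01 times as wide as its Hdac2 partner at the median (quartiles 0.859 and 1.19), and it was the wider of the pair in 50.9% of pairs. Across the 5958 pairs the widths of the partners ranked alike with a Spearman rho of 0.532, given as a description over sites of the same 2 libraries.

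The 1 bp rule decided few cases. Only 12 pairs overlapped by under 100 bp, the least by 7 bp on chromosome 11 (Hdac1 at 85830657-85832162, Hdac2 at 85832156-85833305). Just outside the rule, 2 pairs of unshared peaks were under 100 bp apart, the closest by 17 bp on chromosome 10 (Hdac1 at 79682247-79683273, Hdac2 at 79681311-79682229). The peaks of a single list were otherwise far from the other list. Hdac1-only peaks lay a median of 33.2 kb from the nearest Hdac2 peak, with 60 (3.85%) within 1000 bp. Hdac2-only peaks lay a median of 52.5 kb from the nearest Hdac1 peak, with 86 (2.73%) within 1000 bp and 1027 (32.6%) over 100 kb away.

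Shared peaks were at gene ends most often and Hdac2-only peaks least often. Positions were read against both outer ends of 21887 protein-coding genes, with a window of 1000 bp either side. At such ends lay 79.5% of the shared Hdac1 peaks (78.5 to 80.5%) and 79.4% of the shared Hdac2 peaks, against 69.3% of the Hdac1-only peaks (67.0 to 71.6%) and 54.0% of the Hdac2-only peaks (52.2 to 55.7%). The 3 intervals do not overlap. Hdac2-only peaks lay inside genes, away from any listed start, in 20.9% of cases and outside genes in 18.7%, whereas for Hdac1-only peaks these shares were 12.5% and 11.8% and for shared Hdac1 peaks 7.39% and 6.22%. Starts inside a gene held a similar share of every class, from 6.42% to 6.85%.

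**Figure D1:**
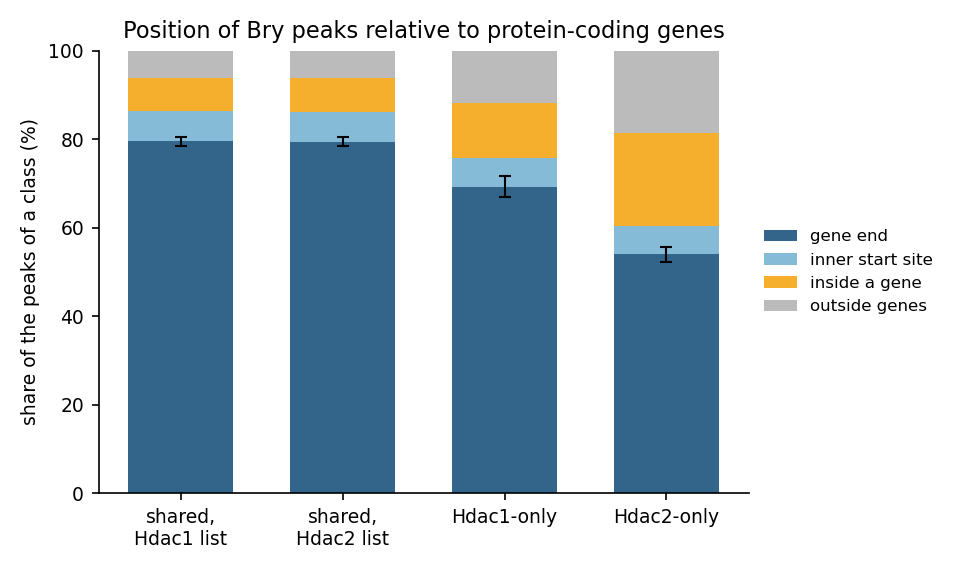
Share of the peaks of each Bry class (y axis, %) at an outer end of a protein-coding gene, at a start site inside a gene, elsewhere inside a gene or outside genes; whiskers are Wilson 95% intervals of the gene-end share. The gene-end share falls from 79.5% of shared Hdac1 peaks to 69.3% of Hdac1-only and 54.0% of Hdac2-only peaks.

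The ends in question were almost always starts. Strand and start sites were listed for 17492 of the genes, and among gene-end peaks that could be resolved with them 99.2% of the shared Hdac1, 98.3% of the Hdac1-only and 99.1% of the shared Hdac2 peaks touched a start. Hdac2-only peaks did so in 95% of cases, and 69 of them lay at a stop, against 15 Hdac1-only peaks. Among peaks that reached within 1000 bp of a listed start, the midpoints lay slightly inside the gene at the median. The centre of shared Hdac1 peaks lay a median of 120 bp downstream of the nearest listed start and that of Hdac1-only peaks 116 bp downstream. For Hdac2 these medians were 102 bp in shared and 104 bp in Hdac2-only peaks. The spread reached upstream, with quartiles of -21.4 and 284 bp in shared Hdac1 and -64.2 and 266 bp in Hdac2-only peaks. These are midpoints of wide peaks and do not place the proteins more closely. Of the peaks outside protein-coding genes, 36.6% of the shared Hdac1 peaks, 29.3% of the Hdac1-only and 22.8% of the Hdac2-only peaks lay at an end of a non-coding gene.

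Peaks of a single list were narrower than shared ones. The median width was 1431 bp in shared Hdac1 peaks (quartiles 1181 and 1796) and 1212 bp in Hdac1-only peaks (1052 and 1433). It was 1427 bp in shared Hdac2 peaks (1160 and 1796) and 1124 bp in Hdac2-only peaks (974 and 1376). The same order held among peaks at gene ends, at 1476, 1235, 1451 and 1183 bp. When each list was cut into 5 equal parts by width, overlap rose from part to part. Hdac2 overlapped 66.7% of the narrowest Hdac1 peaks (up to 1103 bp) and 93.1% of the widest (from 1842 bp). Hdac1 overlapped 39.8% of the narrowest Hdac2 peaks (up to 1028 bp) and 87.9% of the widest (from 1769 bp). Width also moved with position, since 54.9% of the narrowest and 81.6% of the widest Hdac2 peaks lay at gene ends. Among peaks of 1000 to 1500 bp alone, a band chosen after the widths were seen, the gene-end shares were 76.5% for shared Hdac1, 70.5% for Hdac1-only and 56.4% for Hdac2-only peaks.

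**Figure D2:**
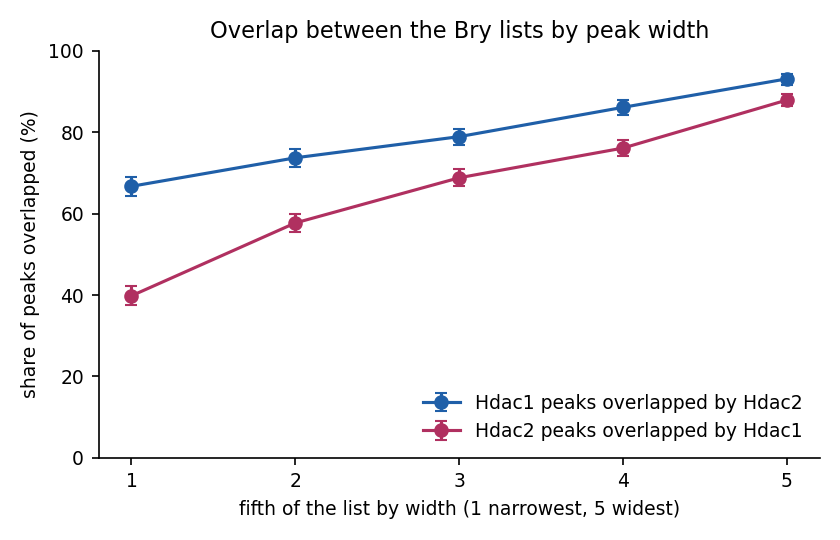
Share of Bry peaks overlapped by the other Bry list (y axis, %) in 5 equal parts of the list by width (x axis, 1 narrowest to 5 widest), with Wilson 95% intervals. Both curves rise, from 66.7% to 93.1% for Hdac1 peaks and from 39.8% to 87.9% for Hdac2 peaks, and the Hdac2 curve lies below throughout.

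Peaks of both proteins were dense on chromosomes 8 and 11. Chromosome 8 carried 62.0 Hdac1 and 76.8 Hdac2 peaks per 100 protein-coding genes and chromosome 11 carried 48.0 and 55.0, against 34.5 and 41.8 on the other autosomes, whose single values ranged from 23.7 to 44.0 and from 27.4 to 50.1. At gene ends chromosome 8 held 40.5 shared Hdac1 peaks per 100 genes against 21.8 on the other autosomes, but 3.93 Hdac1-only against 5.16 and 7.57 Hdac2-only against 8.04. The last 2 values lay within the ranges of the single other autosomes, 3.06 to 6.83 and 5.64 to 9.72. Away from gene ends chromosome 8 held 14.0 shared Hdac1, 3.64 Hdac1-only and 14.2 Hdac2-only peaks per 100 genes, against 5.42, 2.16 and 6.45 on the other autosomes. Here the Hdac1-only value lay within the range of the single other autosomes, 1.13 to 3.72. Of its 227 Hdac2-only peaks 34.8% lay at a gene end (28.9 to 41.2%), against 55.5% on the other autosomes (53.6 to 57.4%). Chromosome 8 was dense in the Hd1_loxlox lists too, with 63.1 Hdac1 and 65.8 Hdac2 peaks per 100 genes against 32.2 and 20.4 on the other autosomes. In Hd2lox it held 40.7 and 45.3 against 35.7 and 44.1.

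The X chromosome set the Bry lists apart. It held 25 Hdac1 and 63 Hdac2 peaks in Bry, so 2.52 Hdac2 peaks for each Hdac1 peak, where every autosome had between 1.12 and 1.28. Of these, 15 peaks in each list were shared, 10 were Hdac1-only and 48 were Hdac2-only, and 33 of the last lay at gene ends. In the other lines the order on X was the reverse, with 111 Hdac1 and 77 Hdac2 peaks in Hd2lox and 17 and 2 in Hd1_loxlox. The Y chromosome held 8 Hdac1 and 3 Hdac2 peaks in Bry.

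**Figure D3:**
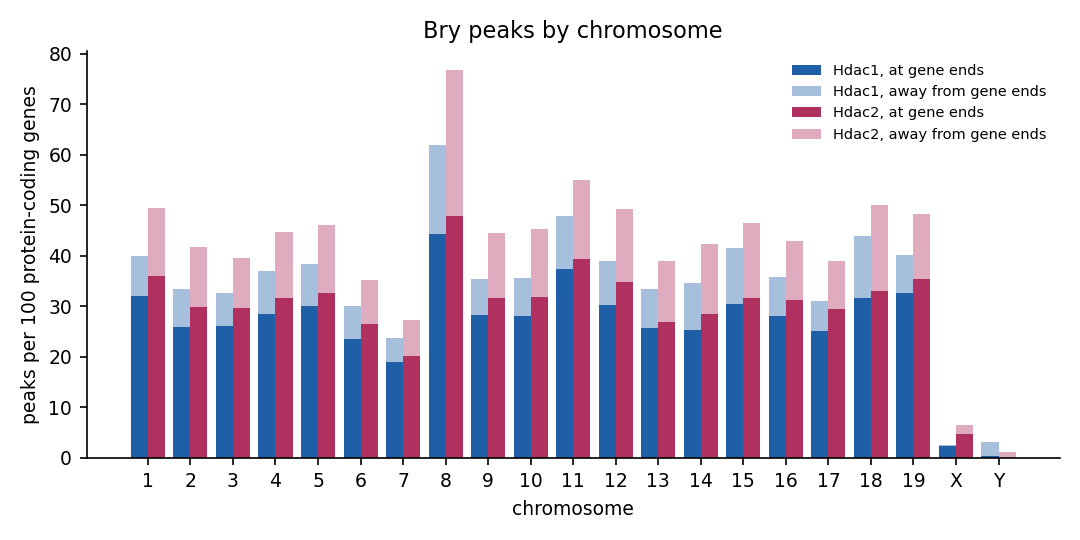
Bry peaks per 100 protein-coding genes (y axis) on each chromosome (x axis), Hdac1 in blue and Hdac2 in red, with peaks at gene ends in the dark part and all others in the pale part of each bar. Chromosome 8 reaches 62.0 and 76.8, above all other chromosomes, and X stays at 2.59 and 6.52.

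Counted over genes, Hdac1 had a peak at an end of 31.9% of protein-coding genes and Hdac2 at an end of 34.4%. Both were at 5757 genes (26.3%), Hdac1 alone at 1232 (5.63%) and Hdac2 alone at 1775 (8.11%), while 13123 (60.0%) had neither. With the 5000 widest peaks of each list the order of the single classes turned, with Hdac1 alone at 1752 genes and Hdac2 alone at 1386, and 3213 genes had both. At 97.3% of the genes with both, the widest peaks of the 2 lists overlapped each other. The lack of a listed peak of the other protein usually reached beyond the gene end. No Hdac2 peak lay in or within 10 kb of 880 (71.4%) of the Hdac1-alone genes, and no Hdac1 peak lay in or within 10 kb of 1415 (79.7%) of the Hdac2-alone genes.

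Ranked by the smaller of the 2 widths, here and in the lists below, Bahcc1 led the genes with both proteins. Bahcc1, a chromatin reader gene, had 6359 bp of Hdac1 (chr11:120232484-120238842) and 5948 bp of Hdac2 (chr11:120229643-120235590). Dusp4, a MAP kinase phosphatase, had 5489 and 5595 bp, Gadd45g 5262 and 6130 bp, and Spry2 4980 and 5082 bp. Zfpm1, a cofactor of GATA proteins in blood formation, had 4655 and 4904 bp, and Trim71, a regulator of developmental timing, had 4396 and 4564 bp. Trim8, a ubiquitin ligase, had 4358 and 5002 bp, and Irf2bp2, a transcriptional corepressor, had 4216 and 5074 bp. Hdac2 was the wider in 7 of these 8 genes and Hdac1 at Bahcc1.

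Hdac1 alone, with no Hdac2 peak in the gene or within 10 kb, was widest at Klf6, where it spanned 3925 bp (chr13:5860105-5864029). Thap2 and Zfc3h1, which start on opposite strands beside each other, shared an Hdac1 peak of 2656 bp (chr10:115383630-115386285). Hspa8, the constitutive heat shock chaperone, had 2631 bp, Fndc3b 2606 bp, and Cdc26, a subunit of the anaphase-promoting complex, 2546 bp. Atg2b, a lipid transfer protein of autophagy, and its neighbour Gskip shared a peak of 2588 bp. All 8 of these genes had an Hdac1 peak in Hd1_loxlox too, and Fndc3b, Atg2b and Gskip also had peaks of both proteins in Hd2lox. Over all Hdac1-alone genes 59.2% had Hdac1 at an end in Hd1_loxlox. In Hd2lox 31.6% of them had Hdac1 and 15.5% had Hdac2.

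Hdac2 alone was widest at Rspo3, a secreted enhancer of Wnt signalling, where the peak spanned 4231 bp (chr10:29532933-29537163). Next came Etv2, the ETS factor that starts the blood and vessel programme, with 3133 bp over the start and most of the short gene (chr7:30634121-30637253). Cilp2 had 3053 bp at its stop, Tspyl1 2854 bp, En2, a homeobox gene, 2693 bp, and Fgfr3 2673 bp. Ifngr2, a chain of the interferon gamma receptor, had 2652 bp and Sec16a, which shapes exit sites of the endoplasmic reticulum, 2649 bp. All 8 carried Hdac1 at an end in Hd1_loxlox, against 41.5% of all Hdac2-alone genes. An Hdac2 peak was present in another line for Cilp2 and En2 and for none of the other 6. That is near the 26.1% of all Hdac2-alone genes.

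Some shared sites were unequal. Among the 5958 pairs 87 had an Hdac1 peak over 2 times as wide as the Hdac2 peak and 67 the reverse. Hdac1 was the wider by 3.3 times at Zfp706, 3.16 times at Fbxo11 and 2.63 times at Kmt2e, a histone reader gene. At Jun, a subunit of the AP-1 transcription factor, Hdac1 spanned 4151 bp (chr4:95049491-95053641) and Hdac2 1391 bp at its upper edge (chr4:95052326-95053716), a ratio of 2.98. A pair at the neighbours Atp6v1g2 and Nfkbil1 had a ratio of 2.65. Hdac2 was the wider by 3.1 times at Irf2bp1, a corepressor related to Irf2bp2, with 2482 against 801 bp. It was the wider by 2.55 times at Camta1, by 2.5 times at Ahnak, by 2.56 times at Efcab5 and Ssh2, which share the peak, and by 2.53 times at Fbxl8 and Hsf4.

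The widest Hdac1-only peaks outside genes lay 1.46 kb from Zfp36 (chr7:28380684-28383021), an RNA-binding factor that shortens cytokine messages, 9.19 kb from Zfp184 and 68.4 kb from Foxo1, and none of the 3 was overlapped in another line. The widest Hdac2-only peak outside genes spanned 4020 bp (chr14:19415280-19419299), lay 332.0 kb from the nearest gene end, that of Nid2, and was overlapped in all 4 lists of the other lines. The next in width lay 2.22 kb from Id2, an inhibitor of basic helix-loop-helix factors, and 2.08 kb from Neurog3, an endocrine fate factor. Id2 had the 2 proteins side by side. Hdac1 alone was at its start (chr12:25095678-25097130), and the Hdac2-only peak lay upstream of that peak without touching it (chr12:25098308-25101027).

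Genes were then read by role, in 26 lists of pathway, cell type and housekeeping genes, beside the background of 26.3% of all genes with both, 5.63% with Hdac1 alone and 8.11% with Hdac2 alone. The classes count peaks at gene ends, and a few single-class members had the other protein elsewhere in the gene. TGF-beta signals pass from ligands through receptor kinases to Smad proteins. Of 28 genes of ligands, receptors and matrix regulators, 9 had both proteins, 1 Hdac1 alone, 3 Hdac2 alone and 15 neither. Both were at the ligand gene Tgfb1 (3525 bp of Hdac1 and 3755 bp of Hdac2), the activin receptor gene Acvr2b (2734 and 2295 bp), Ltbp1 (2181 and 2331 bp), whose product stores the latent ligand, and the receptor gene Tgfbr1 (2291 and 1988 bp). Hdac1 alone lay at Thbs1 (865 bp), whose product activates latent TGF-beta. Hdac2 alone lay at the ligand genes Inhbb (2264 bp) and Gdf11 (1361 bp) and at Ltbp3 (1172 bp).

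The Smad layer was covered throughout. All 17 genes of Smads and their regulators in this list had Hdac2 and 15 had Hdac1, against 34.4% and 31.9% of all genes. The list, like the others, was chosen with earlier results of these data known. Both were at Smad7 (5406 and 3969 bp), the inhibitory Smad, and at the transducer gene Smad3 (2591 and 2355 bp). The corepressor genes Tgif1 (4939 and 2987 bp) and Tgif2 (2466 and 2494 bp) had both too. Hdac2 alone was at Pmepa1 (1948 bp), a feedback inhibitor, and Strap (1562 bp). At Ski, another corepressor gene, the widest peaks of the proteins did not meet, with Hdac1 at chr4:155220658-155222203 and Hdac2 at chr4:155222777-155224150. Of 18 targets of the pathway 7 had both, such as Junb (4233 and 3370 bp), Fn1 (1956 and 2053 bp), Ccn1 (1551 and 2221 bp) and Col4a1 (1546 and 2247 bp), and 9 had neither. Hdac2 alone was at Twist1 (1811 bp) and Snai1 (1202 bp), factors of epithelial to mesenchymal change.

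Of 22 BMP signalling genes 14 had both proteins, 2 Hdac1 alone, 1 Hdac2 alone and 5 neither. The ligand genes Bmp6 (2722 and 2647 bp) and Bmp2 (3200 and 2450 bp), the inhibitor gene Smad6 (5456 and 2316 bp) and the target Id4 (2074 and 1950 bp) led those with both. Besides Id2 (1453 bp), Hdac1 alone was at the homeobox gene Msx1 (1958 bp), and Hdac2 alone was at Smad9 (1069 bp).

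Notch signals pass between touching cells and act in arterial and haemogenic fate. Of 24 Notch genes 14 had both, 7 (29.2%) Hdac2 alone, 0 Hdac1 alone and 3 neither. The Hdac2-alone genes included the ligands Dll1 (2188 bp, chr17:15374635-15376822), Dll4 (1766 bp, chr2:119325327-119327092) and Dll3 (933 bp, at its stop). The others were the receptor gene Notch3 (1024 bp), Lfng (1733 bp), whose product modifies Notch with sugar, Numb (1970 bp), a Notch antagonist, and the target Hes5 (1174 bp). The ligand gene Jag1 (1613 and 2386 bp), the target genes Hes1 (3892 and 4048 bp) and Nrarp (1622 and 2172 bp) and the coactivator gene Maml1 (2113 and 2151 bp) had both. In the other lines 6 of the 7 Hdac2-alone genes had an Hdac1 peak in at least 1 list, Dll4 being the exception. An Hdac2 peak was present for 2, namely Notch3 and Dll3. Over all Hdac2-alone genes these shares were 61.7% and 26.1%.

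Of 27 Wnt genes 18 had both, 6 Hdac2 alone, 0 Hdac1 alone and 3 neither. Hdac2 alone was at the ligand genes Wnt5a (2431 bp), Wnt3 (1766 bp) and Wnt3a (876 bp), the ubiquitin ligase gene Rnf43 (1576 bp), which removes Wnt receptors, Dvl2 (1480 bp), a transducer, and Tcf7 (1314 bp), a nuclear effector. Both were at the receptor genes Fzd8 (3433 and 2732 bp), Fzd5 (2465 and 2602 bp) and Fzd7 (2366 and 2856 bp) and at Ctnnb1 (2194 and 2091 bp), the gene of beta-catenin. The 0 Notch and 0 Wnt genes with Hdac1 alone stand beside 5.63% of all genes, which is a small number in lists of this length. Hdac1 alone was also at 0 genes of the Smad, TGF-beta target, blood cell, pluripotency, neural and endoderm, and Hox lists. With the 5000 widest peaks of each list, 3 Notch genes had Hdac1 alone and 5 Hdac2 alone, and 2 Wnt genes had Hdac1 alone and 6 Hdac2 alone.

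Factors that make blood and vessel were often occupied by both. Of 30 haematopoietic transcription factor genes 16 had both, 1 Hdac1 alone, 3 Hdac2 alone and 10 neither. Besides Zfpm1, both were at Meis1 (3251 and 3196 bp), Hhex (3269 and 3166 bp) and Kmt2a (2898 and 2973 bp). Hdac1 alone was at Hlf (1461 bp), a stem cell factor, and Hdac2 alone at Gfi1b (2025 bp), a repressor of the endothelial programme, Mecom (1837 bp) and Ikzf1 (1054 bp), a lymphoid regulator. The median width at bound genes of this list was 2357 bp for Hdac1 and 2166 bp for Hdac2. Over all genes bound by each it was 1436 and 1393 bp. Other lists also lay above these, such as the Smad list (2064 and 1931 bp) and pluripotency genes (2633 and 1900 bp). Some lay below, such as mitochondrial ribosomal genes (1328 and 1154 bp).

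Several factors of this list with no peak at an outer end carried both proteins inside the gene. Runx1, the regulator of the step from endothelium to blood, had Hdac1 at chr16:92694261-92697655 and Hdac2 at chr16:92696509-92699372 over a listed inner start. Its inner site at chr16:92821969-92822842 had both proteins, that at chr16:92715096-92716458 was Hdac1-only and that at chr16:92801185-92802646 Hdac2-only. Gata2 also had both at an inner start (Hdac1 at chr6:88197206-88199839, Hdac2 at chr6:88196786-88200346), with a further Hdac1-only peak (chr6:88202632-88204116). At Erg both lay inside the gene (Hdac1 at chr16:95438799-95440966), and Hdac2 alone at a further site (chr16:95374167-95375321). At Lmo2 both covered the same inner site (Hdac1 at chr2:103969110-103970998).

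Of 34 endothelial genes 14 had both, 1 Hdac1 alone, 6 Hdac2 alone and 13 neither. Both were at the receptor genes Nrp1 (3614 and 3694 bp), Ephb4 (3607 and 3391 bp) and Plxnd1 (2149 and 2405 bp) and at Efnb2 (2257 and 2008 bp), an arterial ligand. Hdac2 alone was at Etv2, Flt4 (1832 bp), a lymphatic and venous receptor gene, Ramp2 (1410 bp), Sox7 (925 bp), Aplnr (880 bp) and Cdh5 (785 bp), the gene of VE-cadherin. The Cdh5 peak had the smallest width found in the Hdac2 list. Egfl7 was the gene with Hdac1 alone at an end (1034 bp, at its stop), but peaks of both proteins also lay inside it. With a window of 2000 bp, 0 endothelial genes had Hdac1 alone. At Sox17 the widest peaks of the proteins stood apart (Hdac1 at chr1:4496045-4497086, Hdac2 at chr1:4491785-4493169).

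Of the 18 markers of haemogenic endothelium and endothelium, 8 had both proteins at an end (Kdr, Pecam1, Sox17, Sox18, Fli1, Tal1, Gfi1 and Kit). A further 4 had Hdac2 alone (Cdh5, Sox7, Etv2 and Gfi1b), 0 had Hdac1 alone and 6 had neither. Of the last, Erg, Lmo2, Runx1 and Gata2 had both proteins inside the gene. Over all protein-coding genes 26.3% had both at an end, 5.63% Hdac1 alone and 8.11% Hdac2 alone. Of 8 blood markers 2 had both (Itga2b and Klf1) and 6 neither, and of 6 pluripotency markers 1 had both (Klf4) and 5 neither. Of 7 markers of muscle, Nkx2-5 had Hdac1 alone, Hand1 had Hdac2 alone and 5 had neither. Of 6 neural and endoderm markers 3 had both (Sox1, Sox17 and Gata6) and 3 neither.

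The longer lists of other cell types were read against the same background of 26.3% with both. Of 28 blood cell genes 3 had both (Kit, Itgb3 and Itga2b) and 25 neither. Of 26 cardiac and smooth muscle genes 3 had both, with Gata6 the widest (3208 and 3248 bp), 2 had Hdac1 alone (Ryr2, 1549 bp, and Nkx2-5, 958 bp), 2 Hdac2 alone (Hand1, 1585 bp, and Isl1, 1040 bp) and 19 neither. Of 18 pluripotency genes 5 (27.8%) had both, such as Lin28a (3931 and 4962 bp) and Sall4 (2633 and 3004 bp), and 13 neither. Of 24 neural and endoderm genes 3 had both, 4 (16.7%) Hdac2 alone, such as En2 and Tubb3 (1185 bp), and 17 neither. Of 39 Hox genes 35 had neither, Hoxd8 had both (2828 and 1392 bp), and Hoxd1 (1665 bp), Hoxb2 (1232 bp) and Hoxd9 (1125 bp) had Hdac2 alone. None of 1106 olfactory receptor genes, silent outside the nose, had a peak of either list.

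The deacetylases were at many genes of their own complexes. The list of 37 such genes also holds Hdac3, which belongs to another complex. Of the 37 genes 23 had both proteins, 6 (16.2%) Hdac1 alone, 2 Hdac2 alone and 6 neither. The Sin3 subunit genes Ing1 (4416 and 4074 bp), Ing2 (2797 and 2852 bp) and Arid4a (2787 and 2777 bp) and the CoREST subunit gene Phf21a (3024 and 2643 bp) led those with both. Hdac1 alone was at Hdac3 (2042 bp), of the NCoR complex, at the Sin3 subunit genes Sap130 (1554 bp), Brms1 (1422 bp) and Arid4b (1342 bp), and at the CoREST genes Kdm1a (1249 bp), a lysine demethylase, and Hmg20b (1230 bp). Related genes could therefore fall in different classes, Arid4b with Hdac1 alone and Arid4a with both, and Brms1 with Hdac1 alone and Brms1l (1327 bp) with Hdac2 alone. The Hdac1 gene itself had Hdac2 alone (2123 bp, chr4:129513200-129515322), and the Hdac2 gene had both (2302 bp of Hdac1 and 1456 bp of Hdac2). All 6 Hdac1-alone genes of this list, Hdac3 included, had an Hdac1 peak in Hd1_loxlox, against 59.2% of all Hdac1-alone genes.

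Other chromatin genes were covered at high shares. Of 27 Polycomb genes 20 had both, with Kdm2b (2519 and 2479 bp), Eed (2341 and 2322 bp) and Suz12 (2068 and 2053 bp) the widest by the smaller width. Hdac1 alone was at Pcgf2 (1478 bp), Phc3 (1258 bp), Cbx6 (1052 bp) and Phc2 (1000 bp), Hdac2 alone at Phf19 (1337 bp), and 2 had neither. Of 20 histone acetyltransferase and bromodomain genes 16 had both, such as Brd2 (3179 and 4212 bp) and Kat7 (2175 and 2051 bp), Brd9 had Hdac1 alone (1175 bp) and Crebbp Hdac2 alone (1109 bp). Histone genes lie in clusters and share peaks, so their counts are not separate observations. Of 64 such genes 8 had both, 13 Hdac1 alone, 9 Hdac2 alone and 34 neither, and an Hdac1 peak of 4115 bp lay at ends of H2bc7 and H2ac7, which have no Hdac2 peak at an end, and of H2bc8 and H2ac8, which have an Hdac2 peak of 2079 bp.

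Of 40 cell cycle genes 28 had both, 5 Hdac1 alone, 2 Hdac2 alone and 5 neither. Both were at Cdk6 (3098 and 3983 bp), Myc (3075 and 5142 bp), Rb1 (2272 and 2122 bp) and Cdkn1b (2042 and 2755 bp), all regulators of entry into the cycle. Hdac1 alone was at Cdk1 (2350 bp) and Ccnb1 (1112 bp), which drive mitosis, at Mcm3 (1393 bp) and Mcm2 (1146 bp), of the replication helicase, and at the cyclin gene Ccnd3 (937 bp). Hdac2 alone was at Ccnd1 (2689 bp) and Ccnd2 (1958 bp), so no gene of the D cyclins had both. Of 28 immediate early genes, induced within minutes of a stimulus, 22 had both, among them Dusp4, Junb, Dusp6 (2906 and 3064 bp) and Myc. Klf6 had Hdac1 alone, and Egr3 (2770 bp), Egr2 (2723 bp) and Klf10 (2028 bp) had Hdac2 alone.

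Of 80 genes of cytosolic ribosomal proteins, which build the ribosome, 35 had both, 17 (21.2%) Hdac1 alone, 2 (2.5%) Hdac2 alone and 26 neither. The Hdac1-alone peaks ranged from 947 bp at Rpl29 to 1993 bp at Rpl23, and those of Rps26 (1867 bp), Rpl35a (1786 bp) and Rpl27a (1710 bp) followed. Hdac2 alone was at Rps13 (1337 bp) and Rpl18 (1208 bp). Of the 17 genes 12 had Hdac1 in Hd1_loxlox and 3 in Hd2lox, while 0 and 2 had Hdac2 there. Over all Hdac1-alone genes these shares were 59.2%, 31.6%, 2.76% and 15.5%. In Bry, Hdac2 lay elsewhere in the gene at 2 of the 17, and Hdac1 at 1 of the 2 Hdac2-alone genes. With the 5000 widest peaks of each list 15 had both, 23 Hdac1 alone and 5 Hdac2 alone. Of 78 mitochondrial ribosomal genes 32 had both, 9 Hdac1 alone and 10 Hdac2 alone, and with the 5000 widest peaks 14 had Hdac1 alone and 7 Hdac2 alone.

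Of 56 translation initiation factor genes 32 had both, 6 Hdac1 alone and 2 Hdac2 alone, and of 49 proteasome genes 20, 8 and 5. Of 84 oxidative phosphorylation genes 23 (27.4%) had both, near the 26.3% of all genes, 9 Hdac1 alone and 9 Hdac2 alone. The widest of each with both were Eif5a (2907 and 3120 bp), Psmd3 (2003 and 2021 bp) and Atp5b (1663 and 1491 bp). Of 394 Zfp genes, of which many sit in clusters of near copies, 98 (24.9%) had both, 30 Hdac1 alone and 49 Hdac2 alone. With the 5000 widest peaks of each list 36 Zfp genes had Hdac1 alone and 25 Hdac2 alone, a turn that the counts over all genes made too. Over all lists together, 475 of 2389 genes had both, 116 Hdac1 alone and 134 Hdac2 alone. The 2389 include the 1106 olfactory receptor genes without a peak, so these counts are not to be read against the 26.3% of all genes.

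**Figure D4:**
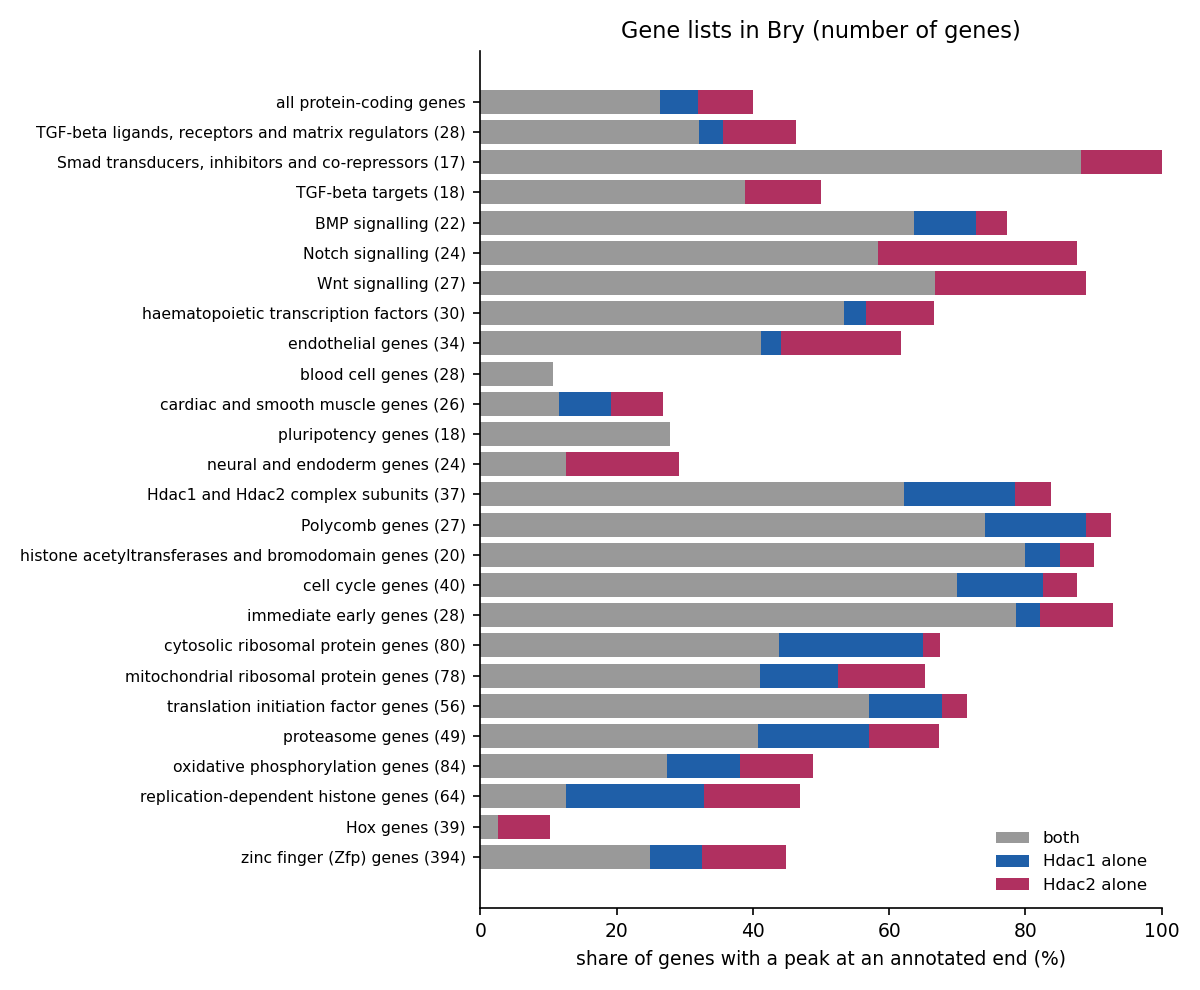
Share of the genes of each list (x axis, %) with a peak at an annotated end of both Bry lists (grey), of Hdac1 alone (blue) or of Hdac2 alone (red), with the number of genes in brackets and all protein-coding genes at the top. Notch and Wnt genes have no blue part (7 and 6 genes with Hdac2 alone). The same holds for the Smad, TGF-beta target, blood cell, pluripotency, neural and endoderm, and Hox lists. Cytosolic ribosomal protein genes have 17 with Hdac1 alone and 2 with Hdac2 alone, and histone genes have 13 and 9. Olfactory receptor genes, all without a peak, are not drawn.

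The start regions of occupied and unoccupied genes differed in CG content. RefSeq listed 21263 windows of 300 bases, 250 before and 50 after a start, for the 17492 genes. Windows with both proteins (5257) held a median of 27 CG dinucleotides, those with Hdac1 alone (1269) and with Hdac2 alone (1670) 21 each, and those with neither (13067) 5. Windows with under 10 CG made 3.27%, 7.8%, 8.68% and 67.2% of these. By CG content the classes with a single protein were thus alike and lay between the others, nearer to those with both.

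A set of 12 motifs was searched on both strands, with no matching of the classes for CG content. The GC box GGGCGG was in 75.7% of windows with both proteins, 69.3% with Hdac1 alone, 69.6% with Hdac2 alone and 29.1% with neither, against 46.2% of all windows. The ETS-type motif CCGGAAGT was most frequent with Hdac1 alone, at 13.1% (11.3 to 15.0%), against 9.4% with both (8.64 to 10.2%), 7.66% with Hdac2 alone (6.48 to 9.04%) and 5.15% of all windows. GCATGCG, the core of the NRF1 site, was in 7.08% (6.41 to 7.8%) with both, 8.83% (7.39 to 10.5%) with Hdac1 alone, 5.45% (4.46 to 6.64%) with Hdac2 alone and 4.44% of all. AAGATGGCG, of the YY1 site, was in 3.44% (2.98 to 3.97%), 4.49% (3.48 to 5.78%), 2.99% (2.28 to 3.93%) and 1.83% of these, and here the intervals of the 3 occupied classes overlap. The CACGTG of E-box factors was in 12.2% with both, 10.8% and 9.28% with Hdac1 or Hdac2 alone and 7.84% of all, and TGACGTCA, of CREB factors, in 3.73%, 3.94%, 3.05% and 2.23%. CCAAT was in 35.2%, 40.1%, 37.7% and 38.2%.

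The other 5 motifs were rarer in occupied windows than in those with neither protein. TATAAA was in 4.51% of windows with both proteins, 6.07% with Hdac1 alone, 6.83% with Hdac2 alone and 17.2% with neither (12.6% of all). The GATA motif AGATAA was in 3.63%, 6.15%, 5.51% and 12.9% (9.65% of all), and the RUNX motif TGTGGTT in 2.32%, 2.44%, 3.17% and 6.09% (4.71% of all). The AP-1 motif TGAGTCA was in 2.38%, 2.52%, 3.59% and 5.92% (4.66% of all), and AGGTCA, of nuclear receptors, in 9.57%, 10.6%, 10.8% and 17.7% (14.7% of all). None of these motifs contains another of the set. A match says only that the letters are in the window.

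The Bry classes were then looked up in the lists of the other lines, which played no part in defining them. Shared Bry sites recurred most. Of the shared Hdac1 peaks 79.3% were overlapped by Hdac1 in Hd1_loxlox, 54.7% by Hdac1 in Hd2lox and 28.7% by Hdac2 in Hd2lox. For Hdac1-only peaks these shares were 48.9%, 25.7% and 12.7%, and for Hdac2-only peaks 30.7%, 28.1% and 16.3%. The Hdac2 list of Hd1_loxlox overlapped 3.83%, 1.41% and 2.35% of the classes. It stood apart from the other lists, since within Hd1_loxlox 4.26% of Hdac1 peaks and 6.2% of Hdac2 peaks were shared, against 43.3% and 36.1% within Hd2lox. The Hdac2 list of Hd2lox was unlike that of Bry too, with a median width of 822 bp against 1310 bp, and 3.91% of its Hdac2-only peaks lay at gene ends against 54.0% in Bry.

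Hdac2-only sites of Bry, like those of every other class, were found with Hdac1 elsewhere more often than with Hdac2. In all 44.8% of the Hdac2-only peaks were overlapped by Hdac1 in at least 1 other line (43.1 to 46.6%) and 17.9% by Hdac2 (16.6 to 19.3%). Within Hd2lox alone the shares were 28.1% (26.5 to 29.7%) and 16.3% (15.0 to 17.6%). Both comparisons rest on the Hdac2 lists just described, and the part of those lists in the difference was not tested. Hdac1-only sites were overlapped by Hdac1 in 56.9% and by Hdac2 in 13.9%, and shared Hdac1 peaks in 85.6% and 30.8%. At gene ends 68.2% of Hdac1-only and 61.0% of Hdac2-only peaks recurred in some list of another line, and away from them 33.1% and 27.7%. The shared Hdac1 peaks recurred in 90.2% and 69.0%. The genes themselves followed the same order. Of the 1775 Hdac2-alone genes 61.7% had Hdac1 at an end in another line and 26.1% had Hdac2, and of the 1232 Hdac1-alone genes 67.8% and 17.8% did.

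**Figure D5:**
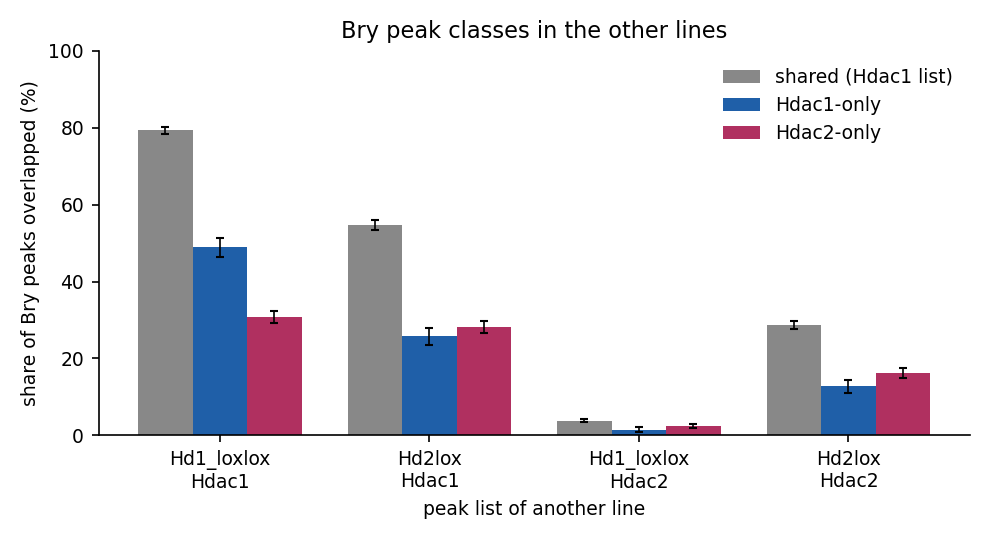
Share of Bry peaks (y axis, %) overlapped by at least 1 bp in each list of the other lines (x axis), for shared peaks of the Hdac1 list (grey), Hdac1-only (blue) and Hdac2-only peaks (red), with Wilson 95% intervals. Shared peaks recur most in every list, at 79.3% in Hd1_loxlox Hdac1. Every class recurs less with Hdac2 of Hd2lox than with Hdac1 of either line, Hdac2-only peaks at 16.3% against 30.7% and 28.1%.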

How the data were processed

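ChIP-seq peak lists of the Bry Hdac1 and Hdac2 libraries were analysed, 7671 and 9279 peaks. Per the submitters' processing notes the tools were bcl2fastq, Bowtie2 2.2.9, SAMtools 1.3.1 and MACS2 2.1.1.20160309, with mm10 as build. Which threshold and which control served in calling is not given in the sources used here. Each list, as deposited by the authors, came from 1 library and holds positions (chromosome, start and end) with no score or count, so depth is unknown. The 3 input libraries were not analysed here. Positions are 1-based.

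Overlaps, gene classes and widths were computed in Python 3.11.15 (pandas 2.3.3, scipy 1.17.1), checked on simulated intervals. Genes and promoter sequences came from RefSeq (GRCm38.p6, the assembly of mm10). The planned windows at starts were replaced by 1000 bp either side of both outer ends, since starts were listed for 17492 of 21887 protein-coding genes (79.9%). A gene counts as bound when a peak overlaps such a window, so neighbours can share a peak. Intervals are Wilson 95%. Genes were named as the 8 widest per class (both by the smaller width, single classes without the other protein within 10 kb), the 5 most unequal pairs each way, the 3 widest peaks outside genes, and list members in a single class with up to 4 wide examples of both. Ski, Sox17 and genes with inner peaks were chosen after their values were seen. Printed sequences were the first named genes whose 250 bases lay outside annotated coding genes and in the peak. Members and gene lists were chosen with earlier results of these data known.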

Additional observations from a re-analysis of the deposited data

Results flagged for a closer look

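The sign of the difference between the antibodies in Bry was the reverse of that in another line for 3 measures. Each line had 1 library per antibody, so none of these differences was tested. The Hdac2 list was longer than the Hdac1 list by 1608 peaks in Bry and by 1563 in Hd2lox. In Hd1_loxlox the difference, Hdac2 minus Hdac1, was -2329 peaks. On the X chromosome Hdac2 had 38 peaks more than Hdac1 in Bry, against differences of -15 in Hd1_loxlox and -34 in Hd2lox. Hdac2 had a peak at an end of 543 more genes than Hdac1 in Bry, against -6340 genes in Hd1_loxlox and -2369 in Hd2lox. In Bry the sign of this difference turned with lists of equal length, since with the 5000 widest peaks of each list 1752 genes had Hdac1 alone and 1386 Hdac2 alone. The Hd1_loxlox values rest on the Hdac2 list that shared 6.2% of its peaks with Hdac1 of its line. Another 2 measures had the same sign in every line. The difference in median width was -65 bp in Bry, -376 bp in Hd1_loxlox and -623 bp in Hd2lox. That in the percentage of peaks at gene ends was -6.68, -69.3 and -33.8.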

How the results depend on the processing

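No paired analysis was possible because Bry had 1 library per antibody, and no replicate could be left out. Peak depth is unknown and width stood in for strength. With the 5000 widest peaks of each list 3190 Hdac1 and 3197 Hdac2 peaks were shared, 1810 and 1803 were not, 3213 genes had both proteins, and 285 list members did. With the 5000 widest of a list against all of the other, 739 peaks were Hdac1-only, 3949 Hdac2 peaks were shared and 1051 were Hdac2-only. The gene-end shares of shared Hdac1, Hdac1-only, shared Hdac2 and Hdac2-only peaks were 76.8%, 66.4%, 76.4% and 50.3% with windows of 500 bp, 82.4%, 73.5%, 82.4% and 59.3% with 2000 bp, and 84.1%, 75%, 83.9% and 60.6% with all annotated genes. Median widths in this order were 1476, 1235, 1451 and 1183 bp at gene ends and 1286, 1153, 1330 and 1060 bp away from them. A pair of settings was chosen after seeing the data, leaving out chromosomes 8, 11, X and Y, which left the gene-end shares within counting error, and keeping peaks of 1000 to 1500 bp. The latter gave gene-end shares of 76.5% for shared Hdac1, 77.5% for shared Hdac2 and 56.4% for Hdac2-only peaks, and overlap of shared peaks of 71.4% with Hdac1 of Hd1_loxlox, 46.3% with Hdac1 and 24.8% with Hdac2 of Hd2lox. An overlap of at least 50% of the shorter peak gave 1.87% of Hdac2-only peaks with Hdac2 of Hd1_loxlox. In each of these gene-end settings both shared classes had the highest shares, Hdac1-only peaks the next and Hdac2-only peaks the lowest. Of the class, share, width, gene and recurrence values recomputed under a setting, 35 moved beyond counting error (for counts, by over 1.5 times) and 62 did not. Where fewer peaks or another window were used the cause is that choice, and otherwise the cause was not tested.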
